A study of Mus musculus with 14 samples.

Results

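Mitochondrial ribosomal protein genes were followed in nucleus accumbens tissue of mice that received AAV-Cre or AAV-GFP. The members are the protein-coding rows of the authors' deposited comparison whose symbol is Mrpl or Mrps followed by a number and at most 1 letter. This rule found 76 of 13130 rows, 47 with an Mrpl symbol and 29 with an Mrps symbol. RefSeq lists 78 protein-coding genes of this symbol pattern, and Mrpl53 and Mrpl58 were the ones not found by symbol. Mrpl58 stood in the table under its older symbol, Ict1, and is described with the related genes.

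All 14 mice were C57BL/6 animals homozygous for loxP-flanked Tet1, the gene of an enzyme that oxidises 5-methylcytosine. An adeno-associated virus (AAV) carried Cre recombinase into the nucleus accumbens of 7 mice and green fluorescent protein (GFP) into that of the 7 controls. Messenger RNA was sequenced from each mouse on its own 4 weeks after injection, and the series title concerns stress responses. The promoter of the viral constructs and the age and sex of the mice are not stated in the labels.

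The mitochondrial ribosome translates the few messenger RNAs that mitochondrial DNA encodes, all of them for membrane subunits of the respiratory chain and ATP synthase. Its ribosomal RNAs come from mitochondrial DNA, while its proteins are encoded in the nucleus, made in the cytosol and imported. Some of these proteins belong to families shared with bacterial ribosomes and others occur only in mitochondria. Neurons depend on this system for the energy that synaptic transmission uses.

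For each gene the table gives the log2 fold change and the mean log2 level over all mice. Values per mouse and the depth of each library are therefore unknown, and each value is given with the standard error derived from the authors' statistic. Tet1 itself stood at -0.13 ± 0.11 (log2 fold change ± its standard error) in the authors' deposited table, with an adjusted p of 0.921 (limma column names). The floxed exons and the exons counted are not stated in the labels, so loss of the floxed exons was not tested. Striatal projection neuron markers were present, with 9 of 9 measured and a median level of 6.40 (log2 CPM per kb of exon) against 2.72 over all rows. Their log2 fold changes were above 0 in 7 of 9 genes (-0.059 to 0.14, median 0.089). Microglia markers were above 0 in 10 of 10 genes (0.024 to 0.72, median 0.43) and interferon response genes in 8 of 8 (0.70 to 1.79, median 1.11). Leukocyte markers were above 0 in the 3 of 8 with a row (0.51 to 2.92, median 1.39). That leukocyte median is Trac (1.39 ± 0.40), whose mean log2 level of -1.52 is under 1 CPM, and the highest is Igkc (2.92 ± 1.03). No marker in these lists passed an adjusted p of 0.05, and the smallest was 0.695. At an unadjusted p under 0.05 in the authors' deposited table, 6 of 10 microglia markers were on the higher side. So were 3 of 3 measured leukocyte markers and 8 of 8 interferon response genes, but 0 of 9 striatal projection neuron markers. Over all rows this share was 4.62%. The part of these cell types in the values below was not tested. In bulk tissue, a change in the number of cells of a type and a change in RNA per cell cannot be told apart.

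No mitochondrial ribosomal protein gene passed an adjusted p of 0.05, and the smallest adjusted p among the 76 in the authors' deposited table was 0.919. Over all rows the share called was likewise 0%. The members clustered slightly above 0: 68 of 76 (89.5%) had a log2 fold change above 0, against 59.1% of all rows. Their median was 0.053, a difference of 3.72%, and the median over all rows was 0.018. At an unadjusted p under 0.05, 3 members (3.95%) were on the higher side, where 4.62% of all rows were, and 0 were on the lower side, where 0.533% of all rows were. The share of members at that threshold was thus near the share of all rows.

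The members also varied little among themselves. Their log2 fold changes ran from -0.045 for Mrps10 to 0.16 for Mrpl52 in the authors' deposited table, with an SD of 0.044 across genes. The median standard error of a single member was 0.060, larger than that SD. In 46 of 76 members the fold change was smaller than its own standard error. The 95% limits, which carry no correction for the number of genes, lay within a 1.2-fold change either way in 69 members. In the other 7 (Mrpl14, Mrpl34, Mrpl52, Mrpl54, Mrpl57, Mrps6 and Mrps28) the upper limit passed it, up to a log2 value of 0.36 for Mrpl52. No member's lower limit did, and the lowest was -0.19 for Mrps36.

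**Figure D1:**
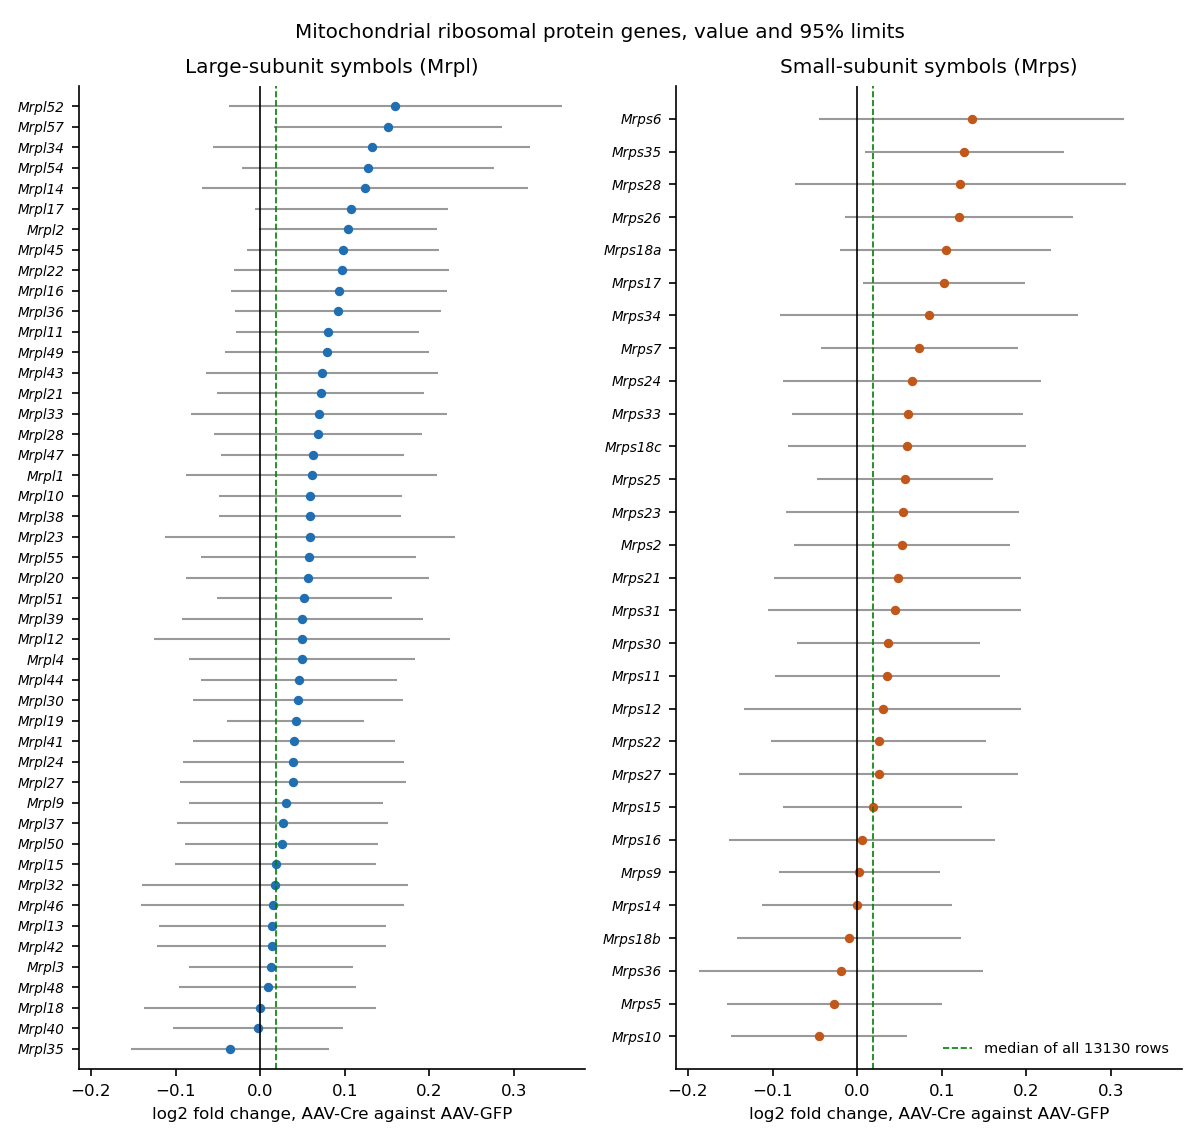
Log2 fold change of AAV-Cre against AAV-GFP for the 47 Mrpl and 29 Mrps genes (points) with 95% limits (lines); the dashed line is the median of all 13130 rows. Most points lie between 0 and 0.16, and the limits of 73 of the 76 genes include 0.

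Mrpl57 had the smallest p of the family. It encodes a mitochondria-specific protein of the large subunit and lies on chromosome 14 from 57826234 to 57829296 (plus strand, GRCm38). In the authors' deposited table its log2 fold change was 0.15 ± 0.063, with 95% limits of 0.017 to 0.29, an unadjusted p of 0.0300 and an adjusted p of 0.919. Mrps17, of a bacterial family of the small subunit (chromosome 5, 129715497 to 129722556), stood at 0.10 ± 0.045 in the authors' deposited table (unadjusted p = 0.0366). Mrps35, a mitochondria-specific protein of the small subunit (chromosome 6, 147042764 to 147073991), stood at 0.13 ± 0.055 there (unadjusted p = 0.0367). The limits of these 3 genes left out 0, but none of them passed once p was adjusted over all rows.

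Of the genes next in order of p, Mrpl2 encodes a protein beside the peptidyl transferase centre and had a log2 fold change of 0.10 ± 0.049 in the authors' deposited table (unadjusted p = 0.0516). Mrpl17, of a bacterial family of the large subunit, followed at 0.11 ± 0.054 (unadjusted p = 0.0631), and the mitochondria-specific small-subunit gene Mrps26 at 0.12 ± 0.063 (unadjusted p = 0.0754). Adjusted p was 0.919 for all 3 in the authors' deposited table. An unadjusted p under 0.1 was listed for 9 members, and 0 of these 9 lay below 0. The share of all rows under 0.1 was not computed, so these 9 have no background to be read against. The whole table leaned the same way at the 0.05 threshold, where 606 of 13130 rows stood above 0 and 70 below it. Whether the lean of the 9 at the 0.1 threshold differs from that of the whole table was not tested.

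The lower end held 8 members, all within 1 standard error of 0. Mrps10, a bacterial-family protein of the small subunit, had a log2 fold change of -0.045 ± 0.049 in the authors' deposited table (unadjusted p = 0.368). Mrpl35, a bacterial-family protein of the large subunit, stood at -0.036 ± 0.055 there and Mrps5, which lines the entry of the messenger RNA channel, at -0.027 ± 0.060. Mrps36 stood at -0.019 ± 0.079 in the authors' deposited table. Its product, also called Kgd4, is now placed in the oxoglutarate dehydrogenase complex of the citric acid cycle. Mrps18b (-0.0095 ± 0.062), Mrpl40 (-0.0028 ± 0.047), Mrps14 and Mrpl18 were closest to 0 among these 8 in the authors' deposited table.

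Nuclear respiratory factor 1 (NRF1), ETS factors such as GABPA, and YY1 are known regulators of nuclear genes for mitochondrial proteins. RefSeq promoters (GRCm38.p6, 250 bases before to 50 after the start) were found for 67 of the 76 genes. The 4 shown are those of 2 genes near the top by p with NRF1 and ETS letters (Mrpl57, chr14:57825989-57826288, plus strand, and Mrpl17, chr7:105811038-105811337, minus strand), of 1 near the top with no match (Mrps17, chr5:129715247-129715546, plus strand) and of 1 from the lower end with a YY1 match (Mrpl35, chr6:71823735-71824034, minus strand). They are read 5′ to 3′ on the gene's strand, and capitals mark matches on either strand. The promoters of Mrpl2, also near the top by p, and Mrps10, the lower-end gene of smallest p, had no match and are not shown.
Mrpl57: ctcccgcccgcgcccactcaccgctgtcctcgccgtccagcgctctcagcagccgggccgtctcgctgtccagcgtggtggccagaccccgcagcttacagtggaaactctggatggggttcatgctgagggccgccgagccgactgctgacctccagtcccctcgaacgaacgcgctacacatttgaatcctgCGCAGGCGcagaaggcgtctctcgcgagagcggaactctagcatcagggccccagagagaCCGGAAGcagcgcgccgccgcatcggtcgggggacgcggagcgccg
Mrpl17: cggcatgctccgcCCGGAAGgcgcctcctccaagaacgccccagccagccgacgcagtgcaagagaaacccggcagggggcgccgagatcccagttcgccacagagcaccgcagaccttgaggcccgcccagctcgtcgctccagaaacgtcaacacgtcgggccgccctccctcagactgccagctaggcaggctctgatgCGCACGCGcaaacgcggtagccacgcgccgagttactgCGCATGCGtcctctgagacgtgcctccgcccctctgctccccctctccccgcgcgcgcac
Mrps17: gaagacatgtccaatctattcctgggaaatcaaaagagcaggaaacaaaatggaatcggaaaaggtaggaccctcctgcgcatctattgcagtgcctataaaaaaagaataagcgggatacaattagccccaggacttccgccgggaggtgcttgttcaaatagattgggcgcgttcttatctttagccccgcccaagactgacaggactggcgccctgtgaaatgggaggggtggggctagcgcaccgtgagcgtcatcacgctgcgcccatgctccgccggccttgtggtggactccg
Mrpl35: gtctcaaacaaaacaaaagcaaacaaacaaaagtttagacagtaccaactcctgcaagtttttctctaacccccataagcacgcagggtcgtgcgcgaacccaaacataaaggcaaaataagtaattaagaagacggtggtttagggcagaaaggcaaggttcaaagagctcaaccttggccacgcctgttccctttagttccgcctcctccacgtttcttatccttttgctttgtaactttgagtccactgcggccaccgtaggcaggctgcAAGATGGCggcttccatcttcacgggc

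The letters searched were CGCNTGCG, a core of the site, for NRF1, CCGGAAG for ETS factors and AAGATGGC for YY1, each on both strands. The NRF1 letters stood in 20 of 67 member promoters (29.9%), against 18.2% of the promoters of 9188 protein-coding genes in the table and 8.42% of all 27025 promoters. The ETS letters stood in 23 (34.3%, against 17.8% and 9.12%) and the YY1 letters in 12 (17.9%, against 4.76% and 2.88%). At least 1 of the 3 was present in 41 promoters (61.2%), against 35.2% of table genes. In 0 member promoters did matches of different motifs share bases. The YY1 match of Mrpl35 began at position 23 from the start, and the NRF1 match of Mrpl57 at position -56. Mrpl17 carried the NRF1 letters at positions -48 and -10.

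The fold changes of members with and without these letters are set side by side, with no test. Members with the NRF1 letters had a median of 0.054 on the log2 fold change scale and those without 0.052. For the ETS letters the medians were 0.059 and 0.048, and for the YY1 letters 0.033 and 0.053.

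In the large subunit, the genes of the factor-binding stalk, where translation factors dock, had log2 fold changes of 0.059 ± 0.051 (Mrpl10), 0.080 ± 0.051 (Mrpl11) and 0.049 ± 0.082 (Mrpl12) in the authors' deposited table. Around the peptidyl transferase centre, the site of peptide bond formation, Mrpl16 stood at 0.093 ± 0.060, Mrpl27 at 0.039 ± 0.063 and Mrpl3 at 0.013 ± 0.046 there, beside Mrpl2 above. Stalk and centre together gave 7 of 7 genes above 0, with 0 at an unadjusted p under 0.05. Of all 76 members 89.5% lay above 0, and of all rows 59.1%.

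Along the exit tunnel and the side facing the inner membrane, 6 of 6 genes lay above 0, with a median of 0.060 (log2 fold change). The share above 0 was 89.5% for all 76 members and 59.1% for all rows. Mrpl45, which anchors the ribosome to the membrane, had 0.098 ± 0.053 and the tunnel-exit gene Mrpl22 0.096 ± 0.060 in the authors' deposited table. Mrpl47 stood at 0.062 ± 0.051, Mrpl23 at 0.059 ± 0.080, Mrpl44 at 0.046 ± 0.054 and Mrpl24 at 0.039 ± 0.061 in the authors' deposited table. The central protuberance, which bridges to the head of the small subunit, had a lower median of 0.012 over 4 genes. Its Mrpl38 stood at 0.059 ± 0.051, Mrpl46 at 0.015 ± 0.073, Mrpl48 at 0.0089 ± 0.049 and Mrpl40 at the value given above, in the authors' deposited table. In both regions 0 genes had an unadjusted p under 0.05.

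In the small subunit, Mrps12 of the decoding centre, which checks codon and anticodon pairing, had a log2 fold change of 0.030 ± 0.077 in the authors' deposited table. Mrps24, near the messenger RNA entry, stood at 0.065 ± 0.071 and Mrps7, of the head, at 0.073 ± 0.055 in the authors' deposited table. With Mrps5 these 4 genes had a median of 0.048. The S18 family has 3 copies in mammals. Mrps18a had 0.10 ± 0.058, Mrps18c 0.059 ± 0.066 and Mrps18b a value just below 0 in the authors' deposited table. The 95% limits of the 3 copies overlapped.

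A fixed list named 12 of these genes in which human variants are known to cause mitochondrial disease. Whether the list is complete was not checked. In the mouse tissue 11 of the 12 (91.7%) had a log2 fold change above 0, against 89.5% of all 76 members and 59.1% of all rows. The median of the 12 was 0.051 and 0 had an unadjusted p under 0.05. The values in the authors' deposited table ran from -0.00048 ± 0.053 for Mrps14, through 0.0060 ± 0.074 for Mrps16, 0.025 ± 0.060 for Mrps22, 0.053 ± 0.060 for Mrps2, 0.054 ± 0.065 for Mrps23 and 0.057 ± 0.049 for Mrps25, to 0.085 ± 0.083 for Mrps34 and 0.12 ± 0.092 for Mrps28. The other 4 (Mrpl3, Mrpl12, Mrpl44 and Mrps7) are given above.

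The subunits are set side by side, with no test. For Mrpl genes the median was 0.056 (log2 fold change), with 44 of 47 above 0 and 1 at an unadjusted p under 0.05. Mrps genes had a median of 0.048, with 24 of 29 above 0 and 2 at that threshold. Both medians stayed at these values when Mrps30 and Mrps18a, whose proteins sit in the large subunit despite their names, were moved there. Genes of bacterial families had a median of 0.055 over 46 and mitochondria-specific genes 0.052 over 29, also not tested. Of the S18 copies, this split counted Mrps18c as bacterial-family and Mrps18a and Mrps18b as mitochondria-specific, so it does not follow family membership for them.

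By level, the members formed a middle-ranking group, with a median of 3.28 (log2 CPM per kb of exon) against 2.72 over all rows. Mrpl41 had the highest level per kb, 5.18, followed by Mrps21 at 5.09 and Mrpl27 at 4.997. Mrps35 had the lowest, 0.67, below Mrps30 at 1.34 and Mrpl15 at 1.42, a 22.8-fold range from end to end on the linear scale. The exonic length joins all annotated transcripts (8631 bases for Mrps35), and which of them the tissue uses was not tested. Since the levels carry no error per mouse, it is unknown which neighbours in this order differ. Before scaling by length, the lowest member stood at 6.25 CPM, so 0 members were under 1 CPM. Genes at lower levels had larger standard errors (across 76 genes, Pearson's r = -0.59, Spearman's rho = -0.55; genes share the same libraries and are not independent).

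Gene length moved with the fold change, both over the whole table and among the members. The rows were split by exonic length into 5 groups of equal size. From the shortest group to the longest, the median log2 fold change over all rows went from 0.055 through 0.038, 0.023 and 0.0083 to -0.017. In the shortest group, which held 38 of the 75 members with a length, the members' median was 0.058. In the next groups it was 0.050 (13 members), 0.052 (11), 0.039 (8) and 0.015 (5). Across those 75 members, log10 length and fold change had a Pearson's r of -0.30 and a Spearman's rho of -0.30, a description over genes that share libraries.

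With the trend over all rows removed, the members' median became 0.0087, against 0.00092 over all rows. Of the 75, 46 (61.3%) lay above the trend line, against 50.7% of all rows. The median value of the trend at the members' own lengths was 0.046, beside their own median of 0.053. After the same removal, the Mrpl median was 0.013 and the Mrps median -0.00035. By role, the stalk was at 0.0021, the peptidyl transferase region at 0.025 and the exit tunnel and membrane side at 0.038. The central protuberance was at -0.017, the decoding and messenger RNA path genes at -0.013 and the disease genes at 0.0040. These groups were not tested against each other. What gives the table its length trend was not tested.

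**Figure D2:**
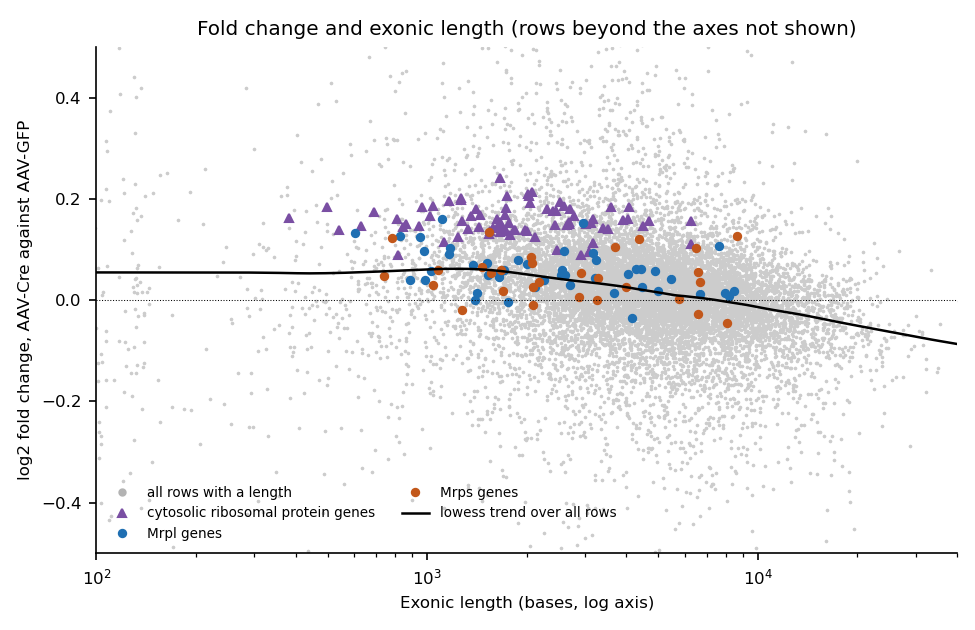
Log2 fold change against exonic length (bases, log axis) for all rows (grey), Mrpl genes (blue), Mrps genes (orange) and cytosolic ribosomal protein genes (purple triangles); the line is the lowess trend over all rows. The mitochondrial genes scatter around the line, with 46 of 75 above it, while all 77 cytosolic genes lie above it.

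The ribosomal proteins of the cytosol, which build the ribosomes for all other cellular messages, stood higher. Their log2 fold changes were above 0 in 77 of 77 genes, from 0.090 to 0.24 in the authors' deposited table, with a median of 0.15 and 0 genes past an adjusted p of 0.05. At an unadjusted p under 0.05 on the higher side there were 8 of 77, a larger share than the 4.62% of all rows. Of the mitochondrial genes, the 2 highest values (Mrpl52 and Mrpl57) were near that cytosolic median. With the length trend removed the cytosolic median was 0.11, against 0.0087 for the mitochondrial genes. The difference between the families was not tested, since both come from the same mice and no value per mouse is at hand.

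**Figure D3:**
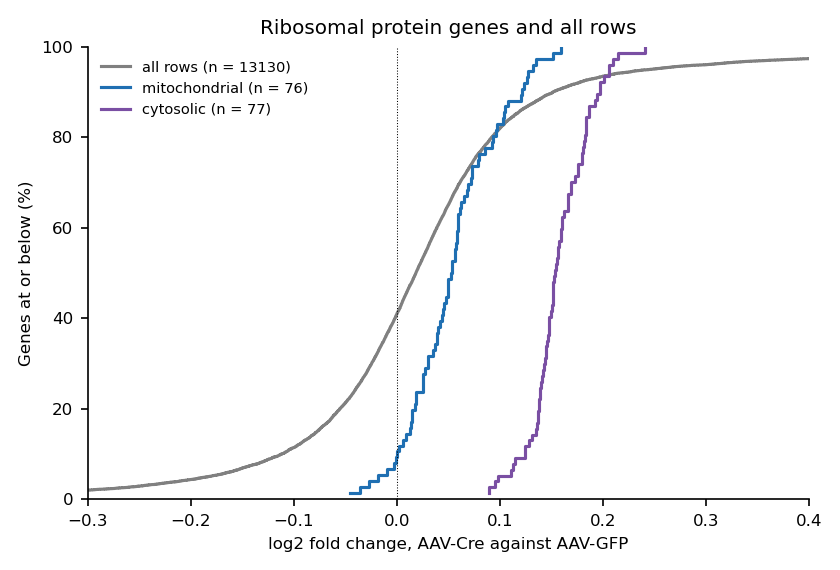
Percentage of genes (vertical axis) at or below each log2 fold change (horizontal axis) for all rows, the 76 mitochondrial and the 77 cytosolic ribosomal protein genes. The mitochondrial curve crosses its middle at 0.053 and the cytosolic one at 0.15, against 0.018 for all rows.

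Other genes of mitochondrial translation had medians between 0.011 and 0.029, below the 0.053 of the ribosomal protein genes and on either side of the 0.018 of all rows. With the length trend removed, and all rows at 0.00092, the ribosomal protein genes were at 0.0087, proteins under other symbols at -0.0097, translation factors at -0.010, assembly factors at -0.016, synthetases at -0.0057 and transcription and upkeep genes at 0.0061. For ribosomal proteins with unrelated symbols the median was 0.020 (log2 fold change) over 6 of 6 genes, from -0.012 ± 0.051 for Dap3 to 0.099 ± 0.052 for Gadd45gip1 in the authors' deposited table. Between these, the peptidyl-tRNA hydrolase gene Ict1 stood at 0.0011 ± 0.048, Ptcd3 at 0.0023 ± 0.046, Chchd1 at 0.037 ± 0.067 and Aurkaip1 at 0.083 ± 0.072 in the authors' deposited table. The 10 translation factor genes had a median of 0.019, with 7 above 0. The elongation factor gene Tufm stood at 0.038 ± 0.053, its exchange factor gene Tsfm at 0.035 ± 0.051 and the initiation factor gene Mtif2 at -0.017 ± 0.053 in the authors' deposited table. Of these 16 genes, 0 had an unadjusted p under 0.05.

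For assembly of the ribosome the median was 0.026 (log2 fold change), with 12 of 16 above 0 (16 of 17 measured) and 0 at an unadjusted p under 0.05. The helicase gene Ddx28 was the highest of these at 0.14 ± 0.074 in the authors' deposited table, and the rRNA methyltransferase gene Mrm1 the lowest at -0.11 ± 0.082. Mitochondrial transcription and genome upkeep genes had a median of 0.029 over 12 of 14, with 7 above 0 and 0 at that threshold. The polymerase gene Polrmt stood at -0.050 ± 0.076 and the packaging factor gene Tfam at 0.019 ± 0.052 in the authors' deposited table.

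The list for the charging of mitochondrial transfer RNAs held 22 genes, with Gars, Kars, Qrsl1, Gatb and Gatc among them. Of these 22, 13 lay above 0 and the median log2 fold change was 0.011. Fars2, for phenylalanine, stood at 0.18 ± 0.066 (unadjusted p = 0.0163) and Mars2, for methionine, at -0.14 ± 0.056 (unadjusted p = 0.0249) in the authors' deposited table. They were the 2 of 22 with an unadjusted p under 0.05, in opposite directions, and adjusted p was 0.919 for both. Over all rows, 4.62% were higher and 0.533% lower at that threshold. Transcripts encoded by mitochondrial DNA were not analysed here, since 0 rows had a symbol that starts with mt-, the prefix of these genes.

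**Figure D4:**
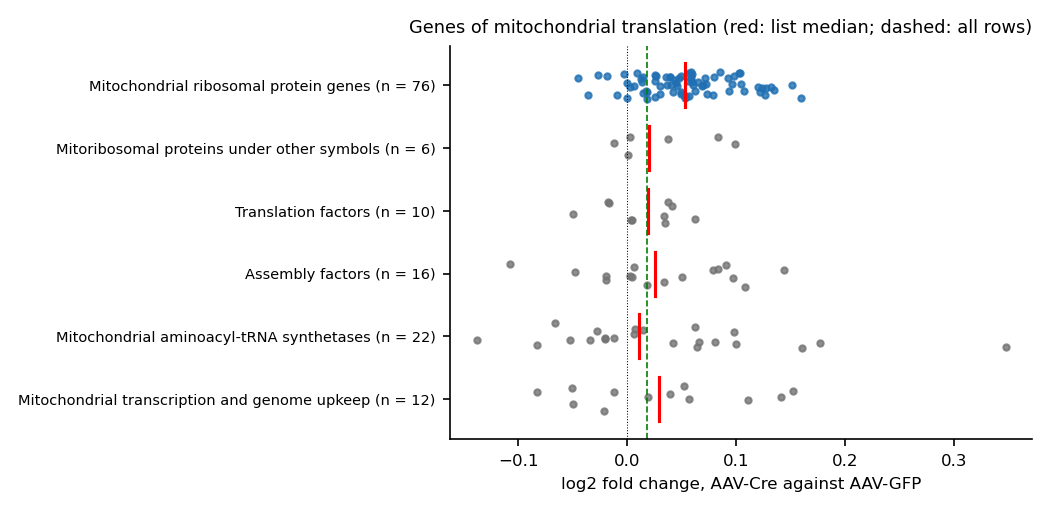
Log2 fold change of AAV-Cre against AAV-GFP for each gene (points, spread vertically for visibility) of the 76 mitochondrial ribosomal protein genes and of 5 related lists; red bars are medians and the dashed line is the median of all rows. The list medians lie between 0.011 and 0.029, and that of the ribosomal protein genes at 0.053; with the length trend removed (not drawn) they are -0.016 to 0.0061 and 0.0087.

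Many of the members share their start region with another gene. A protein-coding gene on the opposite strand began within 1000 bases of the start of 33 of 75 members (44.0%), against 15.5% of 12073 protein-coding rows. Mrps11 and Mrpl46 form such a pair with each other on chromosome 7, and stood at 0.036 ± 0.062 and 0.015 ± 0.073 in the authors' deposited table. For the 24 measured neighbours outside the family the median was 0.0047 (log2 fold change), with 14 above 0. Members with such a neighbour had a median of 0.040 and the others 0.057.

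Read assignment is uncertain for some of these genes. In the annotation, exons of 30 members overlap an exon of another gene, 22 of them a protein-coding one. In 8 members (Mrpl19, Mrpl24, Mrpl43, Mrps18b, Mrps18c, Mrps25, Mrps27 and Mrps34) a single other gene covers at least 20% of the exonic bases. No label says whether the authors' counting used strand, so reads of opposite-strand partners may be shared. Mrpl23, Mrpl48 and Mrps36 have named processed pseudogenes, which could take or add reads. The 3 genes with the smallest p (Mrpl57, Mrps17 and Mrps35) had neither an exon overlap nor a named pseudogene.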

How the data were processed

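Polyadenylated RNA of 14 mice was sequenced, 1 library per mouse, per the labels' protocols. The submitters' processing notes name Bowtie2 2.1.0, TopHat2 2.0.9 and mm10 (GRCm38). The sources used here do not give how reads were counted, filtered and modelled.

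The deposited log2 columns are a fold change and a mean level per gene, the deposited score columns hold t, in its moderated form, and log-odds (not used), and the deposited p-value columns are unadjusted and adjusted, per the file headers, whose names are those of limma. The adjusted values equal a Benjamini-Hochberg adjustment of all 13130 p-values to within 1e-06. The direction, AAV-Cre minus AAV-GFP, comes from the name of the table. Linear mean levels sum to 991364, so they were read as CPM.

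Standard errors (fold change divided by t) and 95% limits used 15.1 degrees of freedom, recovered from t and p. The calculation was run on simulated data with independent genes and a t that was not moderated. That run checks the calculation and not the authors' model. Tests planned for library values could not be run. GENCODE M21 gave coordinates and exonic lengths (75 of 76 members matched by gene ID, and 13063 of all rows). The length trend was a lowess fit (fraction 0.3). Promoters were the first listed per gene in RefSeq. Levels were ranked per kb of exon.

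Members and lists were chosen with earlier results of these data known. Named are the 6 members per direction of smallest p, the 3 highest and 3 lowest by level, those with an unadjusted p under 0.05, and fixed groups by role and disease. Alternatives were an adjusted threshold of 0.1, a minimum of 1 CPM, centring, weighting, membership and the length trend. Software was matplotlib 3.10.9, statsmodels 0.14.6, scipy 1.17.1, pandas 2.3.3, numpy 2.4.6 and Python 3.11.15.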

Additional observations from a re-analysis of the deposited data

How the results depend on the processing

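At an adjusted threshold of 0.1, and with a minimum mean of 1 CPM (12697 rows, all 76 members), 0 members passed, as at 0.05. The members' median log2 fold change of 0.053 was 0.050 as a weighted mean and 0.052 with proteins under other symbols added and Mrps36 left out. It became 0.034 after subtracting the median of all rows and 0.0087 after removing the length trend. After the same subtraction the Mrps median of 0.048 became 0.029 and the Mrpl median of 0.056 became 0.038. The same amount was taken from both, and only the Mrpl value stayed within 1.5 times. The subtraction moves a value by construction. The cause of the move with length was not tested. With that Mrpl value among them, 12 of 15 alternative values stayed within 1.5 times of the main one. Leaving out mice could not be run without values per mouse. No paired analysis was possible because the table carries no value per mouse. Depth is unknown, so no limit from counting can be given. With a median standard error of 0.060, a member needed a log2 difference of 0.13 for its 95% limits to leave out 0.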

Other observations

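Values singled out after they were seen follow, with no explanation. Lars2, the mitochondrial leucyl-tRNA synthetase gene, had the highest log2 fold change of its list, 0.35 ± 0.20 (standard error), and an unadjusted p of 0.107 in the authors' deposited table. Mrpl49 and its head-to-head neighbour Fau, which encodes a cytosolic ribosomal protein, stood at 0.079 ± 0.057 and 0.21 ± 0.10 there, with starts 59 bases apart. The neighbours of Mrpl44 (Wdfy1, -0.16 ± 0.24) and Mrps18c (Helq, -0.11 ± 0.10) lay on the other side of 0 from them in the authors' deposited table.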
